A study of Mus musculus with 4 samples.

Results

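The cells described here come from mouse tail intervertebral discs and were chosen by 4 genes, Aspn, Cthrc1, Postn and Thbs4. A cell barcode was kept where it held at least 500 detected genes and under 10% mitochondrial UMIs (UMIs are distinct transcript molecules). Each kept barcode was scored on 7 panels of 4 genes as the mean z-score of ln(1 + UMIs per 10000). A barcode was a member where the Aspn, Cthrc1, Postn and Thbs4 score was the highest of the 7 and above 0.5. The rule gave 282 members of 2417 kept barcodes, and these are called Aspn Cthrc1 Postn cells. Because measured values chose the members, the levels of members against other cells are given as a description, without a test.

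Fibroblasts of the outer annulus fibrosus, the collagen-rich ring of the disc, secrete and crosslink the fibres that hold the disc between the vertebrae. Connective tissue fibroblasts switch on matricellular proteins after wounding, a class of secreted proteins that modify how cells meet the matrix rather than bearing load. Postn (periostin) is such a protein; it binds collagen and helps BMP1 to activate lysyl oxidase. Aspn (asporin) is a small leucine-rich proteoglycan that binds collagen and TGF-beta. Cthrc1 is a secreted glycoprotein known from injured arteries and fibrotic tissue, and Thbs4 is a thrombospondin of tendon and muscle matrix.

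The mice were wildtype C57BL/6 females aged 12 weeks, and discs were taken 7 days after injury. Injured discs had been punctured on both sides with a 30G needle, and control discs were unpunctured and came from the same animals but nearer the tail tip, so position along the tail and injury cannot be told apart. Discs of 6 mice (30 discs) were pooled for each group, dissociated into single cells that were frozen and, once thawed, sorted to remove dead cells and debris, and each group had 1 library in each of 2 rounds. The labels call the cells heterogeneous, so the cell identity rests on markers alone. Nothing states that the 2 rounds used separate mice, so any p-value measures the spread between these libraries.

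The libraries summed to between 1114210 and 16972879 UMIs, and 199 to 1402 barcodes were kept in each. Of the 199 kept barcodes of control round 1, 40 had a barcode with at least 0.3 times as many UMIs in injured round 1. None of the 2 members of control round 1 was among them, and 3 of the 16 member barcodes of injured round 1 were also listed in control round 1. Barcodes of round 2 were not compared here. Whether a shared barcode holds RNA of the same cell in both libraries was not tested, and values of control round 1 carry that doubt. Without the shared barcodes the difference in the share of members, given below, was 9.86 points. Injured round 2 stood apart from the other libraries because it held 263 of the 282 members (93.3%). Injured round 1 stood apart in another way: 6 of its 16 members carried at least 3 of the mural cell markers Rgs5, Myh11, Notch3, Kcnj8, Abcc9 and Cspg4, which mark the pericytes and smooth muscle of vessel walls. The same held for 7 of 263 members in injured round 2 and for the single member of control round 2. This split was chosen after the values were seen, and for the genes named below, calls that it ends and directions that it turns are given with and without those cells.

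The 4 genes lie on 3 chromosomes. In GENCODE M21 on GRCm38 (the mm10 assembly used by the authors), Postn spans chr3:54361109-54391037, Aspn spans chr13:49544443-49567565, Thbs4 spans chr13:92751590-92794818 on the minus strand and Cthrc1 spans chr15:39076932-39087121. The promoters are shown because these genes mark the same cells. RefSeq (GRCm38.p6) gave the 250 bases before the start for 3 of the 4 genes, and Cthrc1 was not matched. They are written 5′ to 3′ on the gene's strand, from chr13:49544193-49544442 for Aspn (plus strand), chr3:54360857-54361106 for Postn (plus strand, the later of 2 listed starts) and chr13:92794819-92795068 for Thbs4 (minus strand). Capitals mark matches on either strand to 3 motifs that were searched. The first, TATAAA, is the TATA box. The second, TGANTCA, is known as a site of AP-1 (Fos and Jun). The third, GGAATG, is known as a site of the TEAD factors of the Hippo pathway.
Aspn: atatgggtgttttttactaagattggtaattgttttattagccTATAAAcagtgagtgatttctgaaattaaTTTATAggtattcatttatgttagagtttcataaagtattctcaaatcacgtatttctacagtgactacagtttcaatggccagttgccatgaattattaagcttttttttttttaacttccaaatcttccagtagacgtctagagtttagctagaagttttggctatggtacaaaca
Postn: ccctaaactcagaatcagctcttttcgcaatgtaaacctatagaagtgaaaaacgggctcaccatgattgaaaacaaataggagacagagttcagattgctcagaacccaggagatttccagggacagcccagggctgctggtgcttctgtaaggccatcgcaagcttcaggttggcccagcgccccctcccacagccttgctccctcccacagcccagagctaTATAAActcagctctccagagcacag
Thbs4: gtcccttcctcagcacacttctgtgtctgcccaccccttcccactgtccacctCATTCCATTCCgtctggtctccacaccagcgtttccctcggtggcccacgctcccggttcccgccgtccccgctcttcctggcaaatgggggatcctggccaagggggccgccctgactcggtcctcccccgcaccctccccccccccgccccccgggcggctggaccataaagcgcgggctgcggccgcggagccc
Aspn held 2 TATA box matches, which began at bases 44 and 73 of the 250, the second on the opposite strand. Postn held 1, which began at base 225. Thbs4 held 2 TEAD matches that share a base, and no AP-1 match lay in these windows. Among 32851 RefSeq promoter windows of the same length, 12.4% held the TATA box, 12.6% the TEAD motif and 6.75% the AP-1 motif. A match describes letters, not a bound site.

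Aspn Cthrc1 Postn cells made up a far larger part of injured round 2 than of any other library. They were 2 of 199 kept barcodes in control round 1 (1.01%, exact 95% interval 0.122 to 3.58%) and 1 of 228 in control round 2 (0.439%, 0.0111 to 2.42%). They were 16 of 588 in injured round 1 (2.72%, 1.56 to 4.38%) and 263 of 1402 in injured round 2 (18.8%, 16.7 to 20.9%). Both injured shares lay above both control shares, but in round 1 the injured interval overlapped that of the control. The mean share was 0.722% ± 0.401 (SD, n = 2) for control discs and 10.7% ± 11.3 (SD, n = 2) for injured discs, and the difference of 10.0 percentage points came from 1.72 points in round 1 and 18.3 points in round 2. The exact two-sided permutation test over libraries gave p = 0.33, the smallest that 2 libraries against 2 allow. Without the members with mural markers the shares were 1.01% and 0% in control and 1.72% and 18.4% in injured libraries, so the round 1 difference fell to 0.713 points. With every barcode thinned to 1000 UMIs before scoring, round 1 showed 1.71% in control and 1.72% in injured, and round 2 showed 0.935% and 17.0%. With z-scores computed within each library the direction in round 1 turned, with 5.03% in control and 4.25% in injured, while round 2 showed 5.26% and 17.6% (exact two-sided permutation p = 1). Intervals cover counting error only. Members had more UMIs than the other kept barcodes of their library, with medians of 9809.5 against 8718 in injured round 1 and 7904 against 5582 in injured round 2, and the part of depth in the result was tested only by this thinning.

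**Figure D1:**
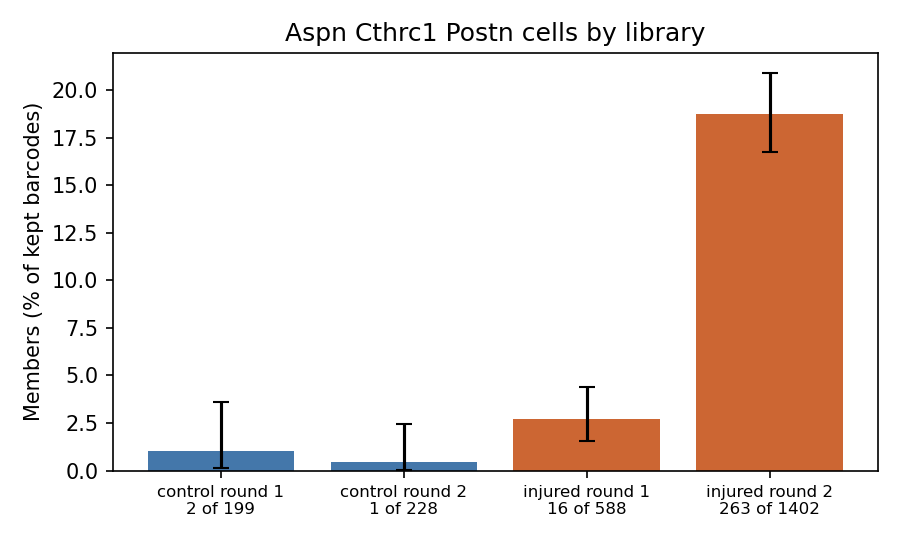
Aspn Cthrc1 Postn cells as a percentage of kept barcodes in each library, with members and kept barcodes below each bar. Bars are single libraries and lines are exact 95% binomial intervals; injured round 2, at 18.8%, stands above the other libraries, at 0.439 to 2.72%.

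Members of injured round 2 carried more of the 4 genes than members of the other libraries. The 4-gene score had a median of 2.17 over all members and a highest value of 4.30. The lowest member scores were 0.507, 0.528 and 0.572, and the nearest barcodes outside, of the 35 with this panel highest but at 0.5 or below, scored 0.497, 0.488 and 0.485. In injured round 2, 138 members held UMIs of all 4 genes, 82 of 3, 38 of 2 and 5 of 1. In injured round 1 these counts were 2, 4, 9 and 1. A second panel also exceeded 0.5 in 34 members, most often Fmod, Comp, Prg4 and M1ap (20 members) or Myoc, Angptl7, Lepr and Ccdc3 (12 members). These panels mark the 299 and 211 kept barcodes used as comparison cells below, called Fmod Comp cells and Myoc Angptl7 cells.

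The 3 members in control libraries did not carry the full pattern. The first member of control round 1 held 9 UMIs of Postn and none of the other 3 genes. The second held 4 UMIs of Postn and 1 of Thbs4. The member of control round 2 held 11 UMIs of Aspn and 4 of Postn, together with 27 UMIs of Rgs5, 38 of Acta2 and all 6 mural markers. None of them held a UMI of Cthrc1. In injured round 1, Aspn was seen in 14 of 16 members, Postn in 11, Cthrc1 in 8 and Thbs4 in 6. In injured round 2, Aspn was seen in 244 of 263, Cthrc1 in 234, Postn in 209 and Thbs4 in 192.

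The 4 genes that chose the members differed in how far they were restricted to them. Levels are UMI counts scaled to the library sum of those cells (CPM), and they compare a gene with itself across cells, not genes with each other. Aspn stood at 1261 CPM in members and 6.34 in other kept barcodes of injured round 1, and at 1151 against 17.9 in injured round 2. Cthrc1 stood at 203 against 0.792 and at 1002 against 7.09. Postn stood at 375 against 1.43 and at 1261 against 5.26. Without the members with mural markers, Postn was at 174 CPM and Cthrc1 at 330 in injured round 1 members, with 20 and 38 UMIs behind them. Thbs4, the least restricted, stood at 240 against 35.6 and at 982 against 62.3. In injured round 2 the members held 98.6% of all Postn UMIs, 97.7% of Cthrc1, 95.1% of Aspn and 82.7% of Thbs4. In injured round 1 they held 88.9%, 88.6%, 85.8% and 17.0%. Of the 81 Postn UMIs of that library, 52 lay in the 6 members with mural markers and 20 in the other 10 members. Barcodes with macrophage markers, which should lack these genes, held no UMI of Aspn, Cthrc1 or Postn in 29 barcodes of injured round 1 and 57 of injured round 2, and 1 UMI of Thbs4.

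In control libraries most Aspn lay outside the members. All 47 Aspn UMIs of control round 1 and 51 of 62 in control round 2 were in other barcodes, and 42 and 44 of them were in Myoc Angptl7 cells. The level of Aspn in Myoc Angptl7 cells was 209 CPM in control round 1 and 105 in control round 2, against 24.4 CPM in injured round 1 and 72.0 in injured round 2. Both injured values lay below both control values, with 6 to 44 UMIs behind each. An Aspn UMI was seen in 17.1% and 10.9% of these cells in control and in 6.45% and 11.1% in injured libraries of rounds 1 and 2. After thinning to 2000 UMIs these shares were 14.7% and 9.62% in control and 0% and 5.75% in injured libraries. Aspn is a gene of the rule, and a cell rich in it counts as a member where the 4-gene score is the higher, so these levels are a description. Cthrc1 was nearly absent from control discs, with 0 UMIs among 199 barcodes in round 1 (an exact upper bound of 4.02 CPM outside the members) and 6 UMIs among 228 in round 2.

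**Figure D2:**
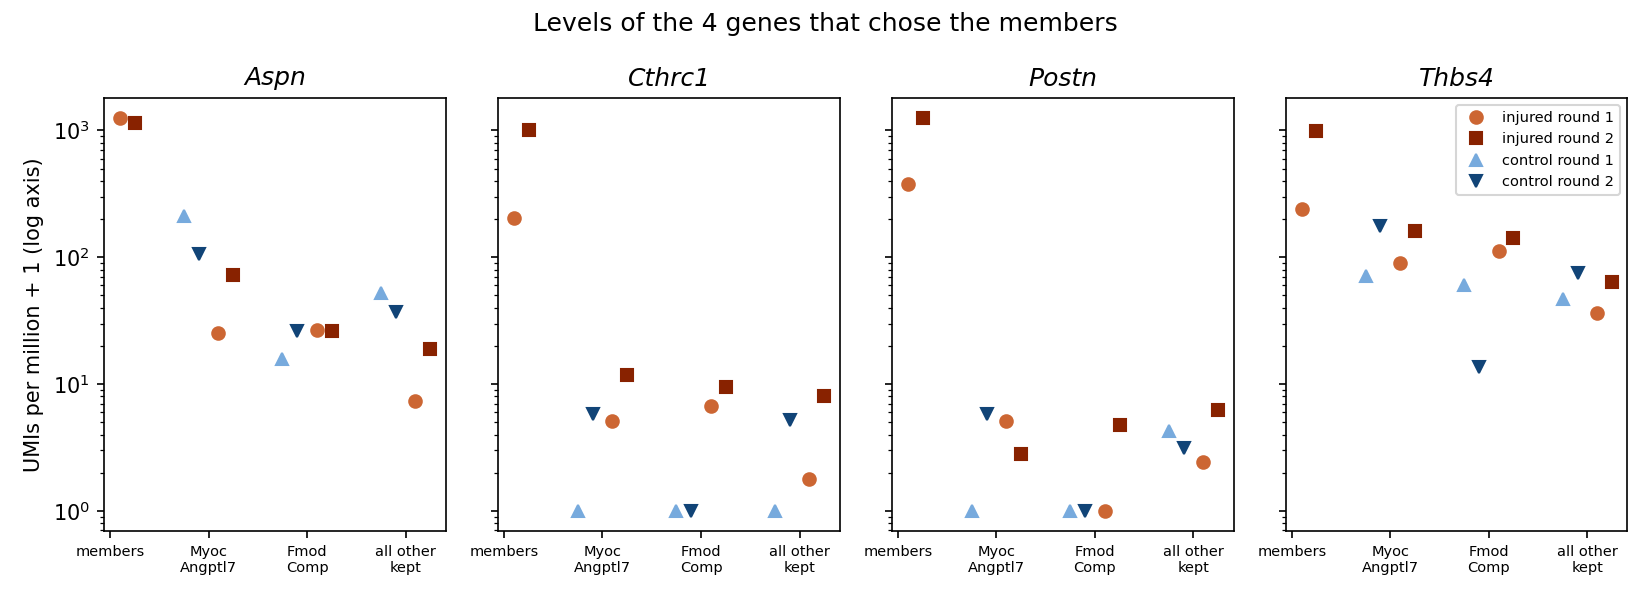
Levels of Aspn, Cthrc1, Postn and Thbs4 (CPM + 1, log axis) in members, Myoc Angptl7 cells, Fmod Comp cells and all other kept barcodes. Each point is 1 library; control members are left out because there are 2 and 1. Aspn in Myoc Angptl7 cells is higher in both control libraries (209 and 105) than in both injured libraries (24.4 and 72.0), but the choice of members can remove Aspn-rich cells from this set.

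Most members of the injured libraries carried fibroblast markers, with high fibrillar collagen. Col1a1, the main chain of type I collagen, stood at 10651 CPM in injured round 1 members and 19580 in injured round 2, against 3559 and 4929 in other barcodes. Col3a1, the collagen of young and healing connective tissue, stood at 7462 and 12118 against 458 and 972. The receptor Pdgfra stood at 193 and 235 against 47.7 and 48.9. One member of injured round 1 held no UMI of Col1a1 or Col3a1, and entered by 1 UMI each of Cthrc1 and Thbs4. The 2 members of control round 1 held 1 UMI of Col1a1 each, and 0 and 3 of Col3a1. Dcn (decorin), a proteoglycan of most disc fibroblasts, went the other way, at 4429 and 3251 in members against 11194 and 12036. All 10 macrophage markers were at 0 in injured round 1 members, and summed to 35.5 CPM in injured round 2 members against 529 in other barcodes. Of 8 nucleus pulposus markers, 8 and 6 were at 0. The 7 mural markers (with Acta2) summed to 3074 CPM in injured round 1 members against 185 in other barcodes, and to 401 against 307 in injured round 2. Endothelial markers summed to 584 against 177 in injured round 1, almost all of it Fabp4 (568 CPM), with Cdh5, Kdr, Egfl7 and Tie1 at 0, and to 29.9 against 55.6 in injured round 2. The part of other cell types in the results was not tested beyond leaving out the members with mural markers.

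Across all genes, 8851 had at least 10 CPM on average in members or in other barcodes. Of these, 403 (4.55%) were at least 2-fold higher in members in both injured libraries and 369 (4.17%) at least 2-fold lower, on the scale of log2((CPM + 10) / (CPM + 10)), called the log2 ratio below and given for round 1 and then round 2. "Higher" and "lower" below mean past 2-fold in both libraries. The median log2 ratio of all measured genes was 0.04 and 0.13. Without the members with mural markers, 362 genes (4.15%) were higher and 359 (4.11%) lower.

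Outside the panels, the 20 genes with the largest ratios among those with a UMI in at least 25% of members included fibre components, collagen-binding proteins and surface proteins of stromal cells. Mfap5, a microfibril glycoprotein, led them with 485 CPM in members against 1.74 in other barcodes of injured round 1 (790 without the members with mural markers), and 634 against 11.6 in injured round 2. Loxl1, which crosslinks elastin, followed with 318 against 0.951 and 427 against 10.8. Fstl1, a secreted follistatin-like protein, stood at 2402 against 64.3 and at 3631 against 199.8 CPM, and was seen in 98.6% of members and 28.3% of other barcodes. For each of these 3 genes both member values lay far above both values of the other barcodes. Col5a3 (log2 ratios 4.47 and 4.18), Fbn1 (3.76 and 3.54), Lum (3.75 and 3.75) and Col3a1 (4.0 and 3.63) encode fibre components. Dpt, dermatopontin, a small collagen-binding protein (4.44 and 4.04), Cd248, endosialin (3.43 and 4.04), and Cd34 (3.15 and 3.62) are surface or matrix markers of stromal fibroblasts. Mmp2, a gelatinase (3.40 and 4.31), and Igf1, a growth factor (3.35 and 4.06), were also among the 20, with Serpinf1, C1qtnf6, Lgals1, Ifitm3, Nid1, Ebf1, Serping1 and Acta2. Acta2, smooth muscle actin, had a round 1 ratio of 4.76 with the members that carry mural markers and -0.95 without them, while round 2 gave 3.10 and 2.86. The basement membrane gene Nid1 dropped from 3.73 to 2.40 in round 1 without them. Genes seen in fewer members were left out of this ranking, such as Pi16 (3.36 and 3.51), which was seen in 9.93% of members.

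**Figure D3:**
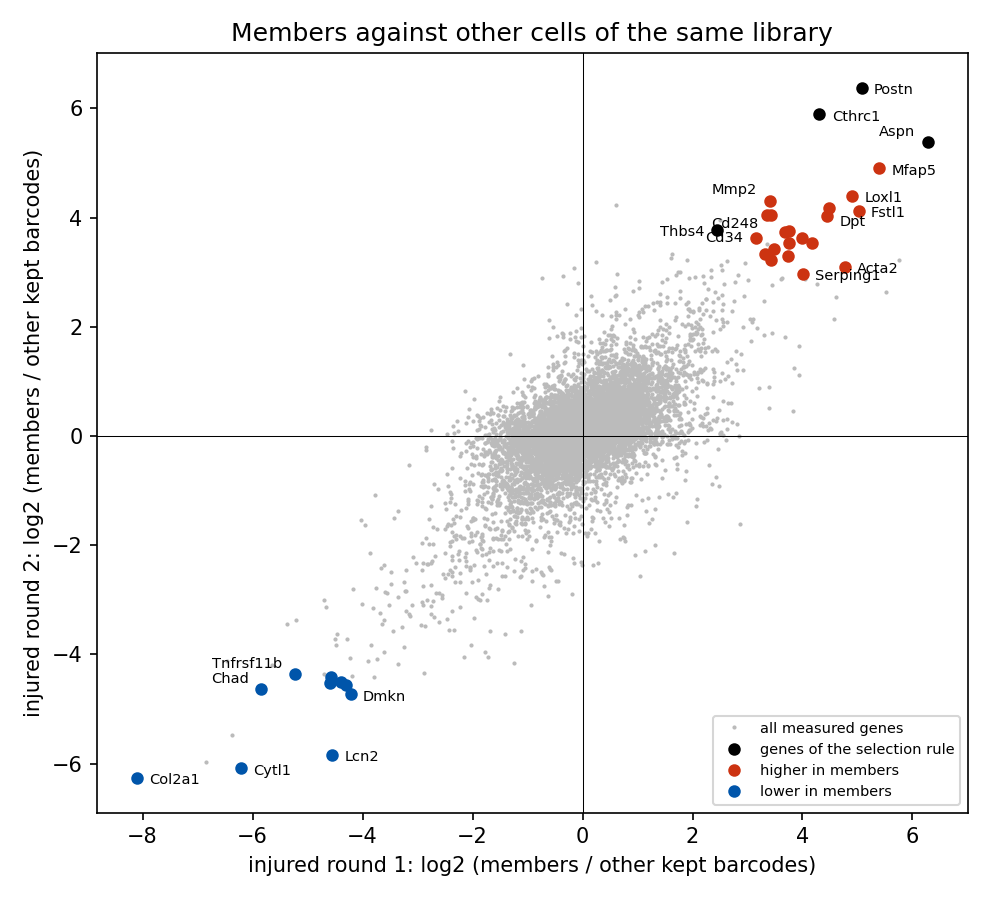
Log2 ratio of each measured gene in members against other kept barcodes, injured round 1 on the x axis and injured round 2 on the y axis. Black points are the 4 genes of the rule, red and blue points the 20 highest and 10 lowest other genes among those with a UMI in at least 25% of members or of other barcodes; Mfap5 (5.40 and 4.90) and Col2a1 (-8.11 and -6.26) lie at the ends, and not every coloured point is labelled.

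Among the 10 lowest genes with a UMI in at least 25% of other barcodes were cartilage matrix genes and an acute phase gene. Col2a1, cartilage collagen, stood at 10.4 CPM in members against 5625 in other barcodes of injured round 1, and at 84.0 against 7215 in injured round 2. Cytl1, a secreted protein of chondrocytes, stood at 5.21 against 1120 and at 15.2 against 1697. Lcn2 (lipocalin 2), an acute phase protein, stood at 62.5 against 1690 and at 19.9 against 1709. The other 7 were Chad, Scrg1, Inhba, Meltf, Tnfrsf11b, Hapln1 and Dmkn, with log2 ratios from -4.22 to -5.85.

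Most fibrous collagens were higher in members. Of 14 measured, 9 were higher and none lower, beside 4.55% and 4.17% of all measured genes, with median log2 ratios of 1.66 and 2.01. The 9 were Col1a1 (1.58 and 1.99), Col1a2, Col3a1, Col5a1, Col5a2, Col5a3, Col8a1, Col12a1 (2.38 and 2.45) and Col14a1. Against Myoc Angptl7 cells alone, 6 of 14 were higher and 1 lower. The collagen VI chains, which form beaded filaments around cells, were not past 2-fold: Col6a1 stood at 2694 and 2706 CPM in members against 2724 and 2772 in other barcodes.

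Among 23 measured genes that process and crosslink collagen, 8 were higher and 2 lower, with medians of 0.45 and 0.74. The 8 were P4ha3, Fkbp10, Serpinh1, Pcolce, Bmp1, Adamts2, Adamts14 and Loxl1. Bmp1, which cuts the C-terminal propeptide, had ratios of 3.62 and 2.90, and its enhancer Pcolce 3.09 and 2.14. The N-propeptidases Adamts2 (3.18 and 1.98) and Adamts14 (1.31 and 1.58) and the collagen chaperone Serpinh1 (1.92 and 1.69) were also higher, and without the members with mural markers the round 1 ratio of Adamts14 was -0.05 and that of Adamts2 1.88. Pcolce2, a paralogue of Pcolce, was lower at -3.24 and -3.87, as was the lysyl hydroxylase Plod2 (-1.29 and -1.69), whose round 1 ratio was -0.84 without the members with mural markers. Lox, the lysyl oxidase that Postn helps to activate, was not past 2-fold in either round, at -0.87 and 0.74.

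Of 12 measured elastic fibre genes, 6 were higher and none lower (medians 1.09 and 1.47). These were Mfap5, Fbn1, Fbln2 (2.21 and 2.80), Fbln5 (1.26 and 1.69), Efemp1 (2.02 and 1.13) and Eln, elastin itself, which stood at 31.3 and 23.8 CPM in members against 6.02 and 4.20. Without the members with mural markers, the round 1 ratio of Eln was 0.22. Small leucine-rich proteoglycans were split. Lum (lumican), Ogn (1.11 and 2.26) and Epyc (2.38 and 1.01) were higher, Dcn (-1.34 and -1.88) and Chad were lower (Dcn at -0.79 in round 1 without the members with mural markers), and Bgn had ratios of 0.66 and 0.70. Against Myoc Angptl7 cells alone 1 of 7 was higher and 3 lower, and Ogn (-1.04 and 0.27) and Epyc (0.86 and -0.78) were on opposite sides of 0 in the 2 rounds.

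Matricellular genes other than Postn and Thbs4 were divided as well, with 3 of 16 higher and 6 lower, or 5 higher and 6 lower without the members with mural markers. Tnc (tenascin C), a wound matrix protein, had ratios of 2.49 and 3.96, and Ccn5 (3.00 and 2.86) and Ccn3 (2.36 and 1.56) were also higher. Tnn (tenascin N) stood at 233 CPM in injured round 2 members against 2.89 in other barcodes, but at 5.21, a single UMI, in injured round 1. The lower genes included Spp1, osteopontin, at 907 and 788 CPM against 11154 and 12330 (1485 in round 1 without the members with mural markers), Fn1, fibronectin, at 2199 and 2570 against 16538 and 22049, and Ccn2, a target of TGF-beta and YAP, at 469 and 177 against 1385 and 1300. Thbs1, Smoc1 and Smoc2 were the others.

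Of 20 measured matrix proteases and inhibitors, 8 were higher and 3 lower, or 7 and 4 without the members with mural markers. Mmp14, a membrane protease that activates Mmp2, had ratios of 2.54 and 3.04, next to 3.40 and 4.31 for Mmp2. Ctsk (cathepsin K), a collagen-cutting protease, had 2.16 and 1.85, and Adam12 1.57 and 1.89. Fap, a fibroblast activation marker, was low in absolute terms, at 20.8 and 36.0 CPM against 5.39 and 7.49, and it was not past 2-fold in round 1 without the members with mural markers (8.68 CPM, log2 ratio 0.28). Timp3 (-2.02 and -3.82, or -3.84 in round 1 without those members) and Htra1 (-1.46 and -2.32) were lower, and Timp1 was on opposite sides in the 2 rounds (-0.94 and 0.40).

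Of 22 genes of the TGF-beta pathway, which drives matrix production in fibroblasts, 3 were higher and 1 lower. Of all measured genes 4.55% were higher and 4.17% lower, and the medians of this list were 0.31 and -0.26. Lrrc32 (1.94 and 2.33) and Ltbp1 (1.05 and 1.13), which hold latent TGF-beta, and Nrep were higher, with Nrep at 0.59 in round 1 without the members with mural markers. The activin subunit Inhba was lower (-4.58 and -4.42). The ligands Tgfb1 (-1.03 and -0.64) and Tgfb3 (0.72 and 0.56) and the receptor Tgfbr2 (1.0 and 0.95) did not pass 2-fold in both libraries, and Tgfb2 had 0.34 and 1.44. Against Myoc Angptl7 cells alone, none of the 22 was higher and 2 were lower, with medians of -0.46 and -0.61. Lrrc32 (0.77) and Ltbp1 (0.62) were not past 2-fold there in round 1.

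Contractile genes depended on the members with mural markers. Of 13 measured, 10 were higher with them, at medians of 2.26 and 1.37, and 4 of 12 without them, at 0.28 and 1.34. In injured round 2, where 7 of 263 members carried such markers, Acta2 stood at 126 CPM against 5.78 in other barcodes, Tpm2 at 207 against 29.2 and Cald1 at 342 against 38.2. Myh11, a marker of mature smooth muscle, stood at 5.2 against 0.657 there.

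**Figure D4:**
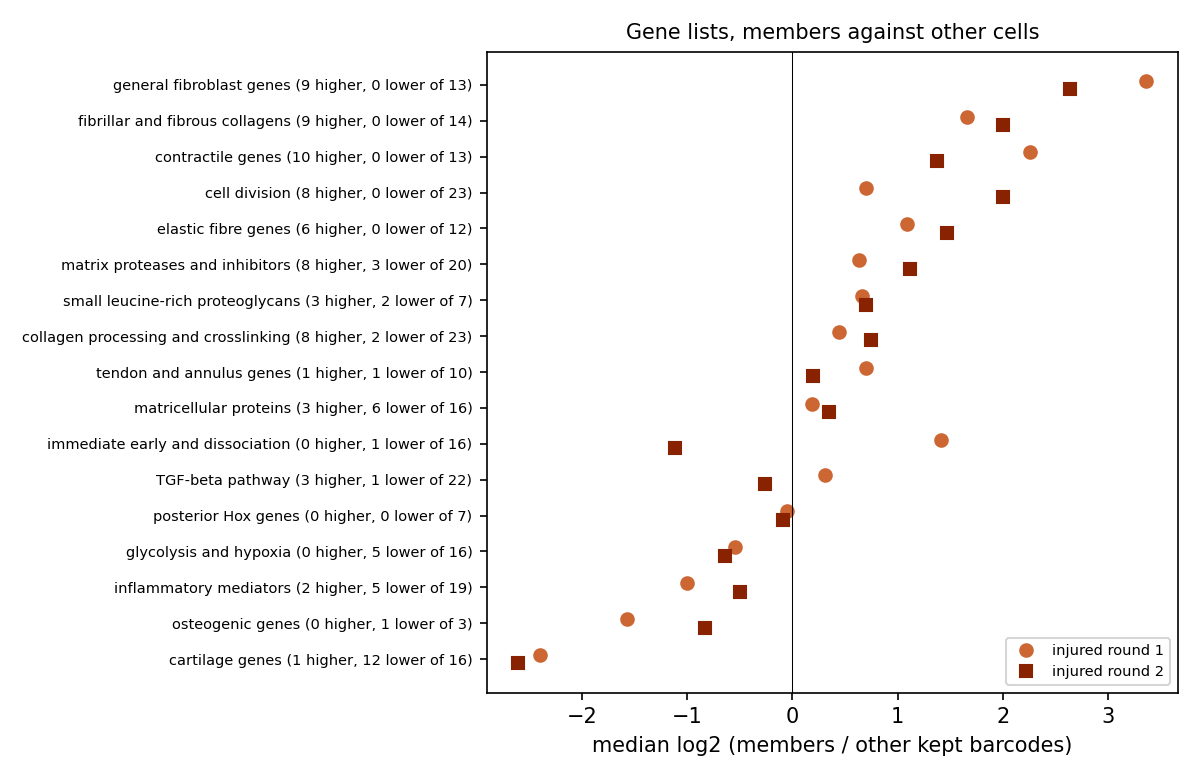
Median log2 ratio of members against other kept barcodes for 17 gene lists in injured round 1 (circles) and injured round 2 (squares), with the number of measured genes higher or lower in both. General fibroblast genes (3.36 and 2.64) lie at the top and cartilage genes (-2.40 and -2.60) at the bottom; immediate early genes lie on opposite sides of 0 in the 2 rounds (1.41 and -1.12).

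General fibroblast genes had the highest medians of these 17 lists, 3.36 and 2.64, with 9 of 13 higher and none lower. Without the members with mural markers the medians were 2.84 and 2.29, with 9 higher and 1 lower. Thy1 stood at 521 and 77.1 CPM against 1.58 and 3.94, and at 86.8 CPM in injured round 1 without the members with mural markers. Pi16, a marker of adventitial fibroblast progenitors, stood at 104 and 109 against 1.11 and 0.394, and at 174 in injured round 1 without those members. Pi16 was seen in 4 of 16 members in injured round 1 and in 23 of 263 (8.75%) in injured round 2. Col15a1, a basement membrane collagen of other fibroblasts, was at -0.94 and -3.09, and was the gene that turned lower in both libraries without the members with mural markers (-1.64 in round 1). Of 16 measured cartilage genes, 12 were lower and 1 higher: Acan (-6.46 and -4.12), Sox9 (-3.11 and -3.10), Col11a1 (-4.01 and -3.08) and Hapln1 (-4.31 and -4.56) were lower and Epyc was higher. Of 10 tendon and annulus genes, 1 was higher (Col14a1) and 1 lower (Cilp2, -3.53 and -3.10). The tendon factor Scx stood at 31.3 and 80.6 CPM against 21.7 and 53.5, and the tendon membrane protein Tnmd, at 62.5 and 24.7, was seen in 2 of 16 and 26 of 263 members.

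Of 19 inflammatory mediators, 5 were lower and 2 higher, with medians of -1.0 and -0.50. Cxcl12, a stromal chemokine, stood at 78.2 and 82.7 CPM against 5.23 and 8.67, and Vcam1 at 136 and 43.3 against 3.33 and 4.47. Ccl2 (-1.83 and -2.18), Lif, Tnfaip3, Icam1 and Lcn2 were lower, with Icam1 at -0.69 in round 1 without the members with mural markers. Among 16 genes of glycolysis and hypoxia, 5 were lower (Hk2, Pfkp, Slc2a1, Bnip3 and Ndrg1) and none higher. No osteogenic gene of 3 measured was higher, Spp1 being lower, and none of 7 posterior Hox genes was higher or lower. Against Myoc Angptl7 cells alone, inflammatory mediators had medians of 0.21 and 0.23, with 3 of 17 higher and 4 lower. Glycolysis and hypoxia genes had a median of 0.25 in each round there, with none of 15 higher and 2 lower.

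Immediate early genes, which respond to stress and to tissue dissociation, separated the 2 rounds. Their median was 1.41 in injured round 1 and -1.12 in injured round 2, and only Ier3 of 16 was past 2-fold in the same direction in both. Fos stood at 511 CPM in members against 82.7 in injured round 1, and at 363 against 698 in injured round 2. The heat shock gene Hspa1b, whose reads can be shared with its near-identical copy Hspa1a, stood at 5571 against 1076 and at 205 against 384. The part of these genes in the other differences between the rounds was not tested.

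Against Myoc Angptl7 cells alone, 501 of 8756 genes (5.72%) were higher in members in both injured libraries and 255 (2.91%) lower. Among genes with a UMI in at least 25% of members, the 10 highest were Col5a3 (4.59 and 4.98), Mfap5 (5.63 and 4.27), Lgals1 (5.06 and 4.19), Loxl1, Dpt, Fstl1, Cd248, Lum, Col18a1 and Cd34. Col18a1, a basement membrane collagen, had 4.17 and 3.39, but its level in injured round 1 members fell from 464 to 8.68 CPM without those with mural markers, below the 16.3 CPM of Myoc Angptl7 cells. The 10 lowest were Cytl1 (-7.70 and -8.53), Chad (-7.98 and -6.78), Clu (-6.26 and -5.60), Cilp2 (-6.38 and -5.56), Spp1, Col2a1, Slurp1, Scrg1, Sema3d and Wif1, the last a secreted Wnt inhibitor (-3.60 and -3.71). Col1a1 was not on one side, at -1.30 in injured round 1 and 0.86 in injured round 2, and Col6a1 had -0.30 and 0.17. The general fibroblast list had 8 of 13 higher and 1 lower, and the cell division list 14 of 23 higher and none lower. Against Fmod Comp cells, 395 of 8678 genes (4.55%) were higher and 277 (3.19%) lower, with Lgals1 at 4.29 and 4.67 and Col2a1 at -8.49 and -6.77.

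Dividing cells were found among members of injured round 2. A barcode was called dividing where it held at least 3 of 12 genes of the G2 and M phases after thinning to 2000 UMIs. By this count 42 of 244 members were dividing (17.2%, exact 95% interval 12.7 to 22.5%), against 7 of 1060 other barcodes (0.660%, 0.266 to 1.36%). Myoc Angptl7 cells gave 0 of 87, which allows up to 4.15%, and Fmod Comp cells 4 of 222 (1.80%). Members thus held 42 of the 49 dividing barcodes of that library. Without thinning the counts were 70 of 263 members (26.6%) and 18 of 1139 others (1.58%), and 19 thinned members lay 1 gene below the cut. In injured round 1, 0 of 16 members and 6 of 540 others (1.11%) were dividing after thinning, and the members' interval reached 20.6%, so a share like that of round 2 was not excluded at this depth. Before thinning, 3 of 16 were dividing. None of the 6 thinned members with mural markers in injured round 2 was dividing.

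Mki67, a marker of cycling cells, stood at 104 CPM in members against 5.91 in other barcodes of injured round 2, and at 20.8 (4 UMIs) against 5.07 in injured round 1. Top2a, which untangles replicated DNA, stood at 94.0 against 4.86 and at 10.4 (2 UMIs) against 11.6. Rrm2, which makes DNA precursors, had log2 ratios of 1.97 and 1.84, and Tyms, of thymidine synthesis, 0.77 and 1.54. Of 23 listed division genes, 8 were higher in both libraries and none lower, with medians of 0.70 in round 1 and 2.00 in round 2. Without the members with mural markers 6 were higher. Dividing members had lower means of Aspn (1.21 against 2.60 UMIs per 2000), Lum (0.762 against 1.53), Mfap5 (0.643 against 1.28) and Dpt (0.238 against 0.594) than the 202 other members. Thbs4 (2.74 against 1.67) and Lox (2.48 against 1.77) had higher means, and Col1a1 was at 38.7 against 43.9. The median of Thbs4 was 1 in both sets, and Aspn and Thbs4 are genes of the rule. All these cells came from 1 library, so the values are descriptive.

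**Figure D5:**
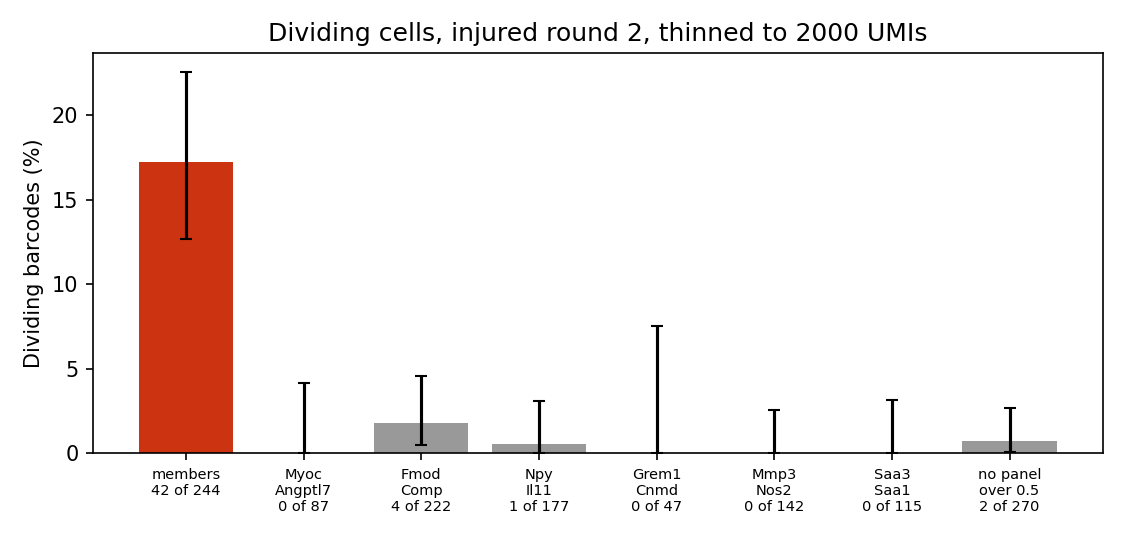
Percentage of barcodes called dividing in injured round 2 after thinning to 2000 UMIs, for members, for the cells of each of the 6 other panels (2 panel genes named below each bar) and for barcodes that no panel score over 0.5 assigned. Lines are exact 95% binomial intervals; members, at 17.2%, stand above each other set, at 0 to 1.80%.

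The members of injured round 2 were not uniform. In UMIs per 10000, Postn ranged from 0 to 100.04 with a median of 8.71, Aspn from 0 to 46.0 with a median of 9.37, Cthrc1 from 0 to 53.2 with a median of 7.66 and Thbs4 from 0 to 75.7 with a median of 3.93. Col1a1 ranged from 0 to 559 with a median of 182. After thinning to 2000 UMIs, 156 of 244 members held a UMI of Postn and 88 did not. Members with Postn had higher means, in UMIs per 2000, of Tnn (0.590 against 0.114), Tnc (1.33 against 0.602), Thbs2 (1.29 against 0.648) and Col12a1 (2.13 against 1.27). The matricellular genes Thbs4 (1.54 against 2.41) and Ccn3 (0.141 against 0.330) had lower means in them. Postn and Thbs4 are both genes of the rule, whose summed score bears on this contrast, and the Thbs4 median was 1 in both sets. Members with Postn also had more Col1a1 (47.5 against 34.9) and Mfap5 (1.36 against 0.841). Members without Postn had higher means of S100a4 (22.0 against 14.1), a calcium-binding protein of motile fibroblasts, Crip1 (36.1 against 24.4), Igfbp6 (2.10 against 0.923), Cd9 (3.91 against 2.19) and Dcn (8.82 against 5.96). Of the 42 dividing members, 26 held Postn and 16 did not. Over the 244 thinned members, which share 1 library and 1 depth, Spearman's rho was -0.48 between Postn and S100a4, -0.43 between Postn and Crip1, and 0.55 between Col1a1 and Col3a1. Among genes of the rule, whose summed score chose the members and so bears on these values, rho was 0.25 between Aspn and Postn and -0.18 between Postn and Thbs4. The split and these pairs were chosen after the values were seen and have no test.

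A few members carried genes of other cells at high counts. Rgs5 reached 36 UMIs per 2000 in single members but was seen in 2.46% of them, Col2a1 reached 26 in 4.92% and Myoc reached 18 in 4.51%. Prg4 (lubricin), a gene of the Fmod panel, was seen in 82.0% of thinned members, with a mean of 4.88 UMIs per 2000.

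Injury could not be tested within the members, because the control libraries held 2 and 1 of them and at least 10 per library had been required. Counts were instead summed per library over all kept barcodes and over the barcodes that were not members, and injured and control were compared with edgeR's quasi-likelihood test with Benjamini-Hochberg adjustment, called at an adjusted p under 0.05. Over all kept barcodes, none of 11559 genes was called (0.0%), 815 had an unadjusted p under 0.05, and DESeq2 called 111. None of the 4 panel genes and none of the 20 leading genes was called, and the lowest adjusted p among the 20 was 0.519. With the round as a block, which pairs discs of the same animals, 479 genes (4.14%) were called higher and 394 (3.41%) lower. That fit called 12 of the 20 leading genes and all 4 panel genes, all with a higher fitted level in injured libraries. By round, 9 of the 20 and 1 of the 4 panel genes were higher in the injured library of round 1. In round 2 all 20 and all 4 were. The newer quasi-likelihood method of edgeR with the same block called 131 genes higher (1.13%) and 176 lower (1.52%), with 4 of the 20 (Col5a3, C1qtnf6, Fstl1 and Col3a1) and Cthrc1 among them. The leading genes were chosen for high levels in cells that came mostly from injured round 2, and the panel genes chose those cells, so these calls are given as a description. Col3a1 stood at 323 and 679 CPM in control and at 665 and 3566 in injured libraries of rounds 1 and 2, and Loxl1 at 10.8 and 4.86 against 10.3 and 108.

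Over the barcodes that were not members, 2 of 11381 genes (0.0176%) were called higher and 15 (0.132%) lower, and none of the 20 was among them. The 20 were chosen against these same injured barcodes, and cells rich in them had been taken out as members, so their levels here are given as a description. Dpt went from 27.2 CPM in control to 3.64 in injured barcodes of round 1 and from 21.8 to 2.89 in round 2. Both injured values lay below both control values. The blocked edgeR fit of these barcodes called 175 genes higher (1.54%) and 184 lower (1.62%), and with the newer method 46 higher (0.404%) and 92 lower (0.808%). Both called Dpt lower, a call that is not independent of how the 20 were chosen, and no other of the 20. Aspn had lower levels in both rounds as well, at 51.2 and 35.9 CPM in control against 6.34 and 17.9 in injured barcodes. It is a gene of the rule, which took 242 of 282 and 2658 of 2794 Aspn UMIs out of the injured libraries but 0 of 47 and 11 of 62 out of the control libraries, so it has no test here. Fewer cells of a kind and less RNA per cell cannot be told apart in these sums.

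Members chosen by z-scores computed within each library, an alternative to the rule, numbered 10 and 12 in control and 25 and 247 in injured libraries of rounds 1 and 2. Whether these were the same kind of cells in both groups was not tested, and which barcodes changed set was not traced. The rule itself took 2 and 1 in control. Myoc Angptl7 cells numbered 17 and 36 in control under this scoring against 35 and 55 under the rule. In injured libraries they numbered 48 and 109 against 31 and 90. Differences between the member sets of control and injured libraries can follow from how the cells were chosen, so they are given as a description. Of 2774 genes, edgeR called none higher (0.0%) and 6 lower (0.216%) in injured libraries: Myoc, Angptl7, Snorc, Cytl1, Cilp2 and Ucma. Myoc and Angptl7 are themselves panel genes whose scores enter the choice of cells. An unadjusted p under 0.05 was reached by 213 genes, and 85 were called with the round as a block. None of the 20 leading genes was called without the block.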

How the data were processed

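Single cell RNA sequencing (10x Genomics 3' v3) measured 2 control and 2 injured disc libraries. The deposited values are UMI counts per gene and barcode, whole numbers that were not normalized. Per the file headers the authors used Cell Ranger 6.0.0 for control round 1 and version 4 for the other libraries, and per the labels they aligned to mm10. Control round 1 lists 444 barcodes and the other libraries 1194644 to 6794880, so the libraries were not filtered alike, and totals (1114210 to 16972879 UMIs) include empty barcodes. All list 32285 genes. The authors kept cells from 250 genes, and 250 is an alternative here to the rule's 500.

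The members, gene lists and tests were chosen with earlier results of these data known. UMIs were scaled to 10000 per barcode for scores and summed per library for CPM. Ratios use a pseudocount of 10 CPM. Named genes are the 4 panel genes, the 20 highest and 10 lowest genes outside the panels by the smaller of the 2 injured libraries' log2 ratios, and the 10 highest and lowest against Myoc Angptl7 cells, in each case among genes with a UMI in at least 25% of the cells where they are higher. Genes named within a list were picked as examples after their values were seen. Marker lists that are not described (lymphocyte, neutrophil, Schwann, muscle, erythroid, epithelial, osteoblast and osteoclast) had summed levels of at most 329 CPM in members, reached by the osteoclast list through Ctsk. Doublets were left in, and the top 5% of Scrublet scores (scanpy 1.11.5) were left out in an alternative.

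Sums were tested with edgeR 4.0.16 in R 4.3.3 (default low-count filter, TMM, injury as the only term, tested on simulated data), with DESeq2 1.42.0 as an alternative. Shares have exact Clopper-Pearson 95% intervals. The round pairs the libraries, since the labels say control and injured discs came from the same animals. Deviations from the group means correlated at 0.472 within rounds over 11559 genes. With 2 libraries a group, both rounds give this same value by construction. It cannot tell shared animals from other differences between the rounds.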

Additional observations from a re-analysis of the deposited data

How the results depend on the processing

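The difference in the share of members, 10.0 points, kept its direction under every alternative run, between 5.79 points (z-scores within each library, with -0.773 points in round 1) and 10.5 points (without the top doublet scores). Leaving out 1 library at a time gave 2.00 points (without injured replicate 2) to 18.0 points (without injured replicate 1), so injured round 2 sets its size. With the replicate block, the difference within rounds was 10.0 points (1.72 and 18.3) with an exact p of 0.5. The count of 403 genes higher in members became 861 with a pseudocount of 1 CPM, and 759 to 1031 with 1 injured library left out, where only 1 library had to pass 2-fold.

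The edgeR count over all kept barcodes, 0, became 873 with the replicate block, 307 with that block and the newer dispersion method, 276 with no low-count filter, 111 with DESeq2, 20 from 250 genes, 10 without the top doublet scores and 96 to 144 with 1 library left out. The count outside the members, 17, became 359, 138, 270, 117 and 63 under the first 5 of these, 0 under 20% mitochondrial UMIs and 109 to 176 with 1 library left out, where a lone library is assumed to vary like the other group. The cause was not tested. Of 270 ratios of 30 named genes under alternatives, each a mean over the 2 injured libraries, 175 moved little, 95 moved and 0 reversed. In injured round 1 alone, Acta2 went from 4.76 to -0.95 without the members with mural markers.

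The planned tests of injury within members, their interactions with other cells and their alternatives were not run, as only z-scores within each library gave 10 members in all 4 libraries; there the block gave 85 calls against 6. From 250 genes, with 3 such libraries, 1 of 4191 genes was called. The number of cells limits what can be said of the 19 members outside injured round 2.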
